A study of Rattus norvegicus with 6 samples.

Results

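Interferon response genes are the transcripts that cells switch on after interferon signalling. They were followed in the prostate of rats (Rattus norvegicus) under excess testosterone and estradiol. The 41 genes were taken by symbol from a list of interferon-stimulated genes that leaves out the Ifitm family, and all 41 were found among the 32883 genes of the count table. The list does not hold every interferon-stimulated gene, and its members were chosen with earlier results of these data known. All 41 also passed the filter on low counts, which left 14003 genes for testing. The study sequenced RNA of 3 prostate samples from a hormone group and 3 from a control group, a rat model of benign prostatic hyperplasia. Hormone rats carried 4 pellets under the skin for 4 weeks, each holding testosterone (25 mg) together with estradiol (2.5 mg). Control rats had an incision that was stapled, with no pellet. One label field names the hyperplasia for all 6 samples, controls included. The sources used here do not give strain, age or prostate lobe. They also do not tie every sample to its own animal, so the p-values reflect only how these 6 samples vary.

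Type I interferons (alpha and beta) signal through the receptor pair Ifnar1 and Ifnar2, and interferon gamma signals through Ifngr1 and Ifngr2. Janus kinases then phosphorylate STAT proteins. A complex that holds Stat2 and Irf9 binds the interferon-stimulated response element in promoters, and the gamma-activated site is the element of the interferon gamma pathway. The products sense viral RNA, degrade or edit it, block translation, trap virus particles or damp the signal again. In a tissue such as the prostate, epithelium, stroma and resident leukocytes can all make them. In bulk tissue, more cells of a type and more RNA per cell cannot be told apart.

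Library totals ranged from 13744680 to 15949500 counts in the hormone group and from 12931982 to 15809858 counts in the control group. Tgm4, a secreted transglutaminase of prostate epithelium, had 79024 to 108918 CPM in hormone libraries and 64931 to 118492 CPM in control libraries (CPM, the count relative to library size after edgeR's TMM scaling, the unit of every level below unless FPKM is named). All 12 luminal epithelial markers chosen to check the tissue label were detected. Hormone library 1 stood apart for the interferon response genes. Its value was the highest of the 6 libraries for 41 of 41 members, whereas hormone library 1 was highest for 20.5% of all genes tested. Counts and fold changes without that library are therefore given for the members as a whole and by class.

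All 41 interferon response genes had a positive fold change in the hormone group, but 1 passed the main test and the size of the difference varied widely between its libraries. The median member stood at 3.79 times the control mean in hormone 1, 1.59 times in hormone 2 and 1.30 times in hormone 3, against 0.855, 1.22 and 0.887 times in controls 1, 2 and 3. Hormone 3 therefore lay close to control 2 at the median member. Summed over the 41 members, the level was 3279, 1512 and 1231 CPM in hormone libraries 1 to 3 and 818, 1103 and 827 CPM in controls 1 to 3. Every hormone sum was above every control sum. Hormone 1 exceeded the mean of hormone 2 and 3 by 1.25 to 6.16 times over the members, with a median ratio of 2.39. It was at least 1.5 times that mean for 40 of 41 members, against 9.73% of all genes tested. It was at least 2 times that mean for 31 of 41 members, against 3.68% of all genes tested, and the median ratio over all genes tested was 0.994. Hormone 2 was in turn above hormone 3 for 37 of 41 members, against 49.2% of all genes tested.

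**Figure D1:**
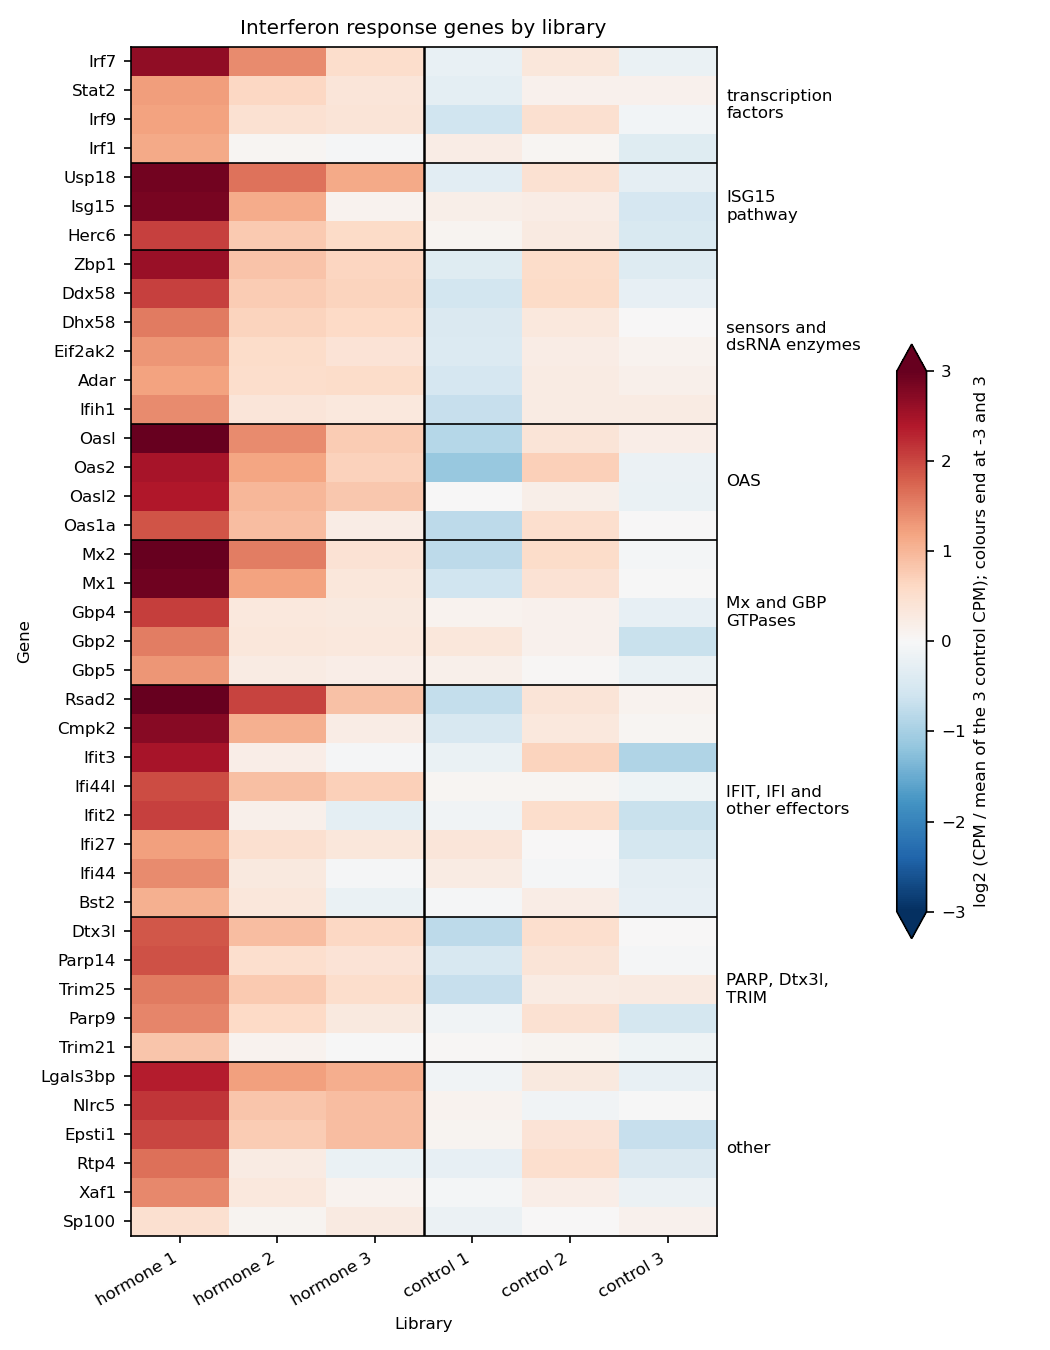
Level of each of the 41 interferon response genes (rows, by class) in each library (columns, hormone left of control), as log2 of the CPM over the mean of the 3 control CPM; red is above and blue below that mean, and colours end at -3 and 3. The column of hormone 1 is the darkest red in every class, hormone 2 and 3 are paler, and control 2 is mostly above controls 1 and 3.

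All 41 members had a positive log2 fold change, hormone minus control, between 0.29 for Sp100 and 2.99 for Rsad2. The median was 1.17 over the members and -0.0015 over all genes tested, of which 49.9% had a positive value. Over 47 interferon-stimulated genes tested outside the member list, the median was 0.40 and 43 values were positive. By edgeR's quasi-likelihood test, with Benjamini-Hochberg adjustment over all genes tested and a threshold of 0.05, 1 member passed as higher and 0 as lower. The same test called 2.39% of all genes higher and 0.886% lower, so 1 of 41 is a share near the background. At an unadjusted p under 0.05, 27 of 41 members were higher, against 12.1% of all genes tested. DESeq2 called 21 of 41 members higher and 0 lower, against 6.47% of all genes higher and 4.41% lower. All 3 hormone values lay above all 3 control values for 22 of 41 members, against 16.1% of all genes tested, and the groups overlapped for the other 19. The reverse order held for 0 members, against 15.2% of all genes tested.

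Without hormone 1, the picture was smaller and more selective. The median log2 fold change of the members was 0.61, against -0.0093 over all genes, and 40 of 41 members stayed positive, against 49.0% of all genes. In that fit edgeR called 0 members, with a smallest adjusted p of 0.0599 for Lgals3bp, against 0.691% of all genes called higher. At an unadjusted p under 0.05, 12 of 41 members were higher, against 8.17% of all genes. DESeq2 without hormone 1 still called 6 members, namely Lgals3bp, Usp18, Nlrc5, Oasl2, Rsad2 and Irf7, against 3.43% of all genes called higher. Members with a log2 fold change of at least 1 numbered 25 with all libraries and 6 without hormone 1. For 10 members the value without hormone 1 was under 0.25. This group held Ifit2, Ifit3, Irf1, Rtp4, Trim21, Bst2, Ifi44, Sp100, Xaf1 and Gbp5.

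**Figure D2:**
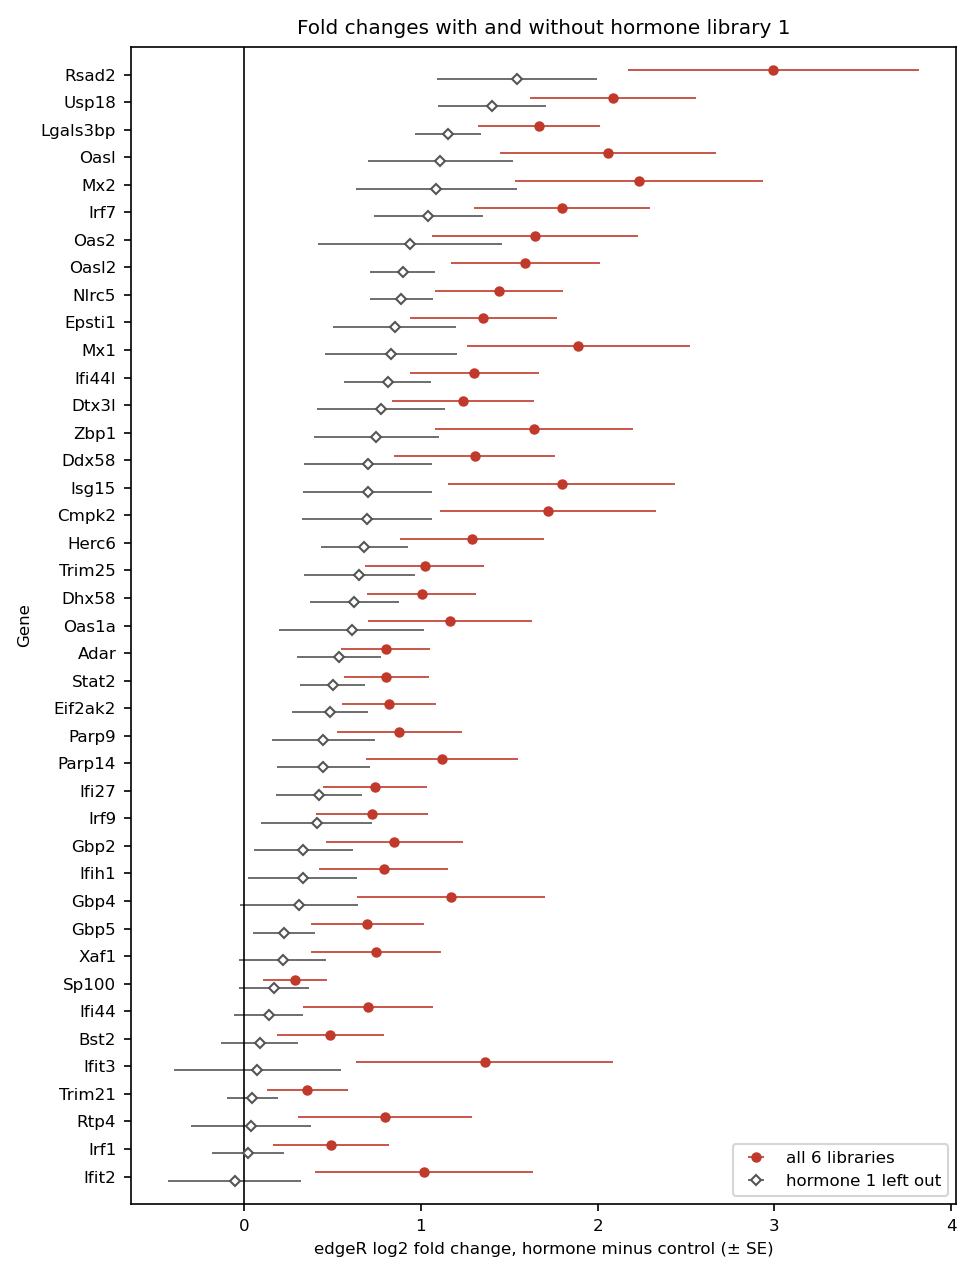
edgeR log2 fold change (hormone minus control, ± SE) of each member with all 6 libraries (red circles) and with hormone 1 left out (open diamonds), ordered by the latter value. Every circle lies right of 0; Rsad2, Usp18 and Lgals3bp keep the largest values without hormone 1, while Ifit2, Irf1 and Rtp4 lie near 0.

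The promoters of the members were read for the interferon-stimulated response element and the gamma-activated site. RefSeq promoters of the GRCr8 build, which cover 250 bases before to 50 bases after each gene's start, were found for 30 of the 41 members. They were searched on both strands for GAAA, any 2 bases and GAAA, the core of the interferon-stimulated response element, and for TTCNNNGAA, the core of the gamma-activated site, which reads the same on both strands. The first was present in 20 of the 30 members (66.7%) and in 3.92% of all 33469 promoters of the table. The second was present in 6 of 30 members (20%) and in 8.87% of all promoters. Of the 4 members with both, the 2 motifs overlapped in 1 (Bst2). Matches to the first began between 169 bases before and 27 bases after the start, and 16 members had one within the 100 bases before it. These matches are letters in a window and were not tested for binding. Entries were not found for Adar, Ddx58, Dhx58, Ifit2, Isg15, Mx2, Nlrc5, Oas2, Rtp4, Usp18 and Zbp1.

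Stretches before the start of 7 members are shown for their motifs, which are in capitals, each 5′ to 3′ in the gene's own direction. They include the called member Lgals3bp, the member with the highest fold change, Rsad2, and Irf1, in which the gamma-activated core stands alone.
Lgals3bp: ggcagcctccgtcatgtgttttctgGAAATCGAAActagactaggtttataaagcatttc
Irf7: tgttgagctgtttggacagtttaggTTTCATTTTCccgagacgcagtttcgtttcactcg
Rsad2: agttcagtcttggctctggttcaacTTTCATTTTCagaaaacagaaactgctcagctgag
Oasl2: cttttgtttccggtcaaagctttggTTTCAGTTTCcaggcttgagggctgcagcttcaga
Oas1a: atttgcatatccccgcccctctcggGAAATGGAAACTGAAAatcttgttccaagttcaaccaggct
Ifit3: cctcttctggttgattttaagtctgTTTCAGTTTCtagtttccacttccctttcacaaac
Irf1: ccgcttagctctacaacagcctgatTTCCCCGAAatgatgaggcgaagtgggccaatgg
On GRCr8 these lie at chr10:104127864-104127923 for Lgals3bp, chr1:205800058-205800117 for Irf7, chr6:48788233-48788292 for Rsad2 and chr12:47383302-47383361 for Oasl2, all on the minus strand. Oas1a (chr12:41330400-41330465), Ifit3 (chr1:241527257-241527316) and Irf1 (chr10:38417768-38417826) lie on the plus strand. In Irf7, Rsad2, Oasl2 and Ifit3 the core reads on the opposite strand, as TTTC, 2 free bases and TTTC. In Oas1a 2 matches share 4 bases.

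Among the 4 transcription factors, Irf7 changed most between libraries. Irf7, which drives the second wave of type I interferon genes, had 207, 87.8 and 47.3 CPM in hormone libraries 1 to 3, against 28.0, 41.7 and 28.5 CPM in controls 1 to 3. The groups did not overlap, but hormone 3 was nearer to control 2 than to hormone 2. Its log2 fold change of 1.80 ± 0.50 (SE) missed the edgeR threshold (adjusted p = 0.0967; DESeq2 adjusted p = 0.0025), and it was 1.04 without hormone 1. In the coordinates of the table, which names no genome build, Irf7 (chromosome 1, 214248837 to 214252456) shares 65 bases with Phrf1, and the strand setting of the counting is unknown. Stat2, the STAT of the type I complex, had 187, 121 and 101 CPM in hormone libraries and 64.0, 85.1 and 84.9 CPM in controls, also without overlap (log2 fold change 0.80, adjusted p = 0.115; 0.50 without hormone 1). Irf9, which gives that complex its DNA binding, had 62.8, 37.6 and 35.6 CPM in hormone libraries and 18.2, 38.3 and 25.7 CPM in controls, so that control 2 was above hormone 2 and 3 (log2 fold change 0.73, adjusted p = 0.225; 0.41 without hormone 1). Irf1, an early target of interferon gamma, had 53.2, 25.6 and 23.8 CPM against 28.6, 25.5 and 18.9 CPM in controls. Only hormone 1 stood outside the control range of Irf1, which had the largest p of all members (log2 fold change 0.49, adjusted p = 0.401; 0.023 without hormone 1).

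The ISG15 pathway attaches a ubiquitin-like protein to other proteins and removes it again. Usp18, the protease that removes Isg15 and also blocks the type I receptor, had 85.6, 35.7 and 25.4 CPM in hormone libraries, against 9.19, 15.8 and 9.49 CPM in controls. Each hormone value exceeded the highest control. The fold change was 4.25 with edgeR (log2 2.09 ± 0.47, adjusted p = 0.059) and the call was missed (log2 1.40 without hormone 1), whereas DESeq2 gave an adjusted p of 0.000138, and 0.00174 without hormone 1. Isg15 itself had 53.0, 16.0 and 7.96 CPM in hormone libraries and 8.33, 8.62 and 5.26 CPM in controls. Hormone 3 thus lay inside the control range for Isg15 (log2 fold change 1.80 ± 0.64, adjusted p = 0.16; 0.70 without hormone 1). Herc6, a ligase of the pathway in mouse, had 57.0, 23.9 and 20.5 CPM against 14.7, 16.8 and 10.1 CPM, with no overlap (log2 fold change 1.29, adjusted p = 0.13; 0.68 without hormone 1).

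Of the 8 classes, the genes that sense or act on foreign or double-stranded nucleic acid formed the only one with no overlap in any member. In all 6 the hormone CPM lay above the control CPM, against 16.1% of all genes tested. In FPKM, which uses library totals without TMM scaling, the class did overlap. There hormone 3 was below control 2 for Ifih1 (6.53 against 7.01), Ddx58 (5.03 against 5.25) and Zbp1 (1.99 against 2.08). DESeq2 called 5 of the 6, against 6.47% of all genes called higher, while none passed edgeR (log2 fold changes 0.79 to 1.64, median 0.91). Without hormone 1 the log2 fold changes were 0.33 to 0.75 (median 0.58), and the DESeq2 adjusted p values were 0.259 to 0.706, so the DESeq2 calls were lost. Zbp1, a sensor of Z-form nucleic acid, had 26.7, 8.13 and 6.95 CPM in hormone libraries and 3.49, 6.49 and 3.40 CPM in controls. Ddx58, which encodes RIG-I, had 25.3, 10.3 and 9.68 CPM against 4.13, 9.04 and 5.13 CPM. In both genes hormone 2 and 3 lay just above control 2 and hormone 1 far above it. Dhx58 (the regulator LGP2) had 37.0, 20.2 and 19.1 CPM against 9.40, 15.8 and 12.8 CPM. Adar, which edits adenosine in double-stranded RNA, had 122, 77.0 and 77.7 CPM against 37.6, 62.4 and 59.1 CPM, one of the smallest excesses of hormone 1 over hormone 2 and 3. Eif2ak2 (the kinase PKR) and Ifih1 (the sensor MDA5) had smaller differences, with log2 fold changes of 0.82 and 0.79 (edgeR adjusted p = 0.138 and 0.247).

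Oligoadenylate synthetases make the messenger that activates the ribonuclease RNase L, and the Oasl proteins are relatives of which some lack this activity. The 4 members had log2 fold changes of 1.17 to 2.06, and of 0.61 to 1.11 without hormone 1. Oasl2 had 64.3, 24.1 and 21.1 CPM in hormone libraries and 12.2, 13.7 and 10.5 CPM in controls, with tight controls and no overlap (log2 fold change 1.59 ± 0.42, adjusted p = 0.0887; DESeq2 adjusted p = 0.00319). Oasl had 49.8, 16.2 and 10.2 CPM against 3.35, 7.95 and 6.93 CPM (adjusted p = 0.113). Oas2 and Oas1a overlapped, because control 2 (6.43 and 14.4 CPM) was above hormone 3 (6.25 and 11.9 CPM). These genes lie in families with similar sequences, as do the Mx, Gbp and Ifit genes, and the sources used here do not say how reads that map to several places were counted.

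The antiviral GTPases split into Mx genes with large excesses in hormone 1 and guanylate-binding genes with smaller fold changes. Mx2 had 228, 67.4 and 31.2 CPM in hormone libraries and 13.5, 33.6 and 22.2 CPM in controls. Mx1 had 185, 56.5 and 30.9 CPM against 16.1, 33.2 and 24.2 CPM. For both, hormone 3 was below control 2, and the log2 fold changes of 2.24 ± 0.70 and 1.89 ± 0.63 passed neither edgeR (adjusted p = 0.129 and 0.142) nor DESeq2 (0.0814 and 0.101). Without hormone 1 they were 1.09 for Mx2 and 0.83 for Mx1. Gbp2, a guanylate-binding protein induced by interferon gamma, had 86.9, 38.1 and 37.8 CPM against 38.2, 33.1 and 19.1 CPM. Hormone 2 and 3 were thus at the level of control 1 (log2 fold change 0.85, and 0.34 without hormone 1). In TMM-scaled CPM the groups did not overlap for Gbp5 and Gbp4. In FPKM both overlapped, with control 1 (4.73 and 0.648) above hormone 3 (4.19 and 0.637). Gbp4 had 25 and 23 counts in hormone 2 and 3, against 22, 26 and 19 in controls. The log2 fold changes of Gbp5 and Gbp4, 0.70 and 1.17, became 0.23 and 0.31 without hormone 1. Gbp4 was the member with the lowest level per length, 1.2 ± 0.947 FPKM in hormone libraries and 0.580 ± 0.0988 FPKM in controls (SD, n = 3 each; FPKM, the count corrected for transcript length and library size).

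Among the IFIT, IFI and other effectors, Rsad2 had the highest fold change of all members. Rsad2, which encodes viperin, an enzyme that makes a chain-terminating nucleotide, had 70.2, 15.7 and 7.11 CPM in hormone libraries and 2.35, 5.10 and 4.17 CPM in controls. The values did not overlap, and hormone 1 was far above hormone 2 and 3 (log2 fold change 2.99 ± 0.82, adjusted p = 0.0964; 1.55 and 0.195 without hormone 1). Cmpk2, the nucleotide kinase beside it on chromosome 6, had 27.8, 8.71 and 4.92 CPM against 2.99, 5.22 and 4.36 CPM, so hormone 3 lay within the control range (log2 fold change 1.72, and 0.70 without hormone 1). Ifit2 and Ifit3, which bind RNA or RNA-binding partners and curb translation, were high in hormone 1 alone. Ifit2 had 49.6, 13.4 and 9.84 CPM in hormone libraries and 11.1, 17.4 and 7.50 CPM in controls. Its log2 fold change of 1.02 (adjusted p = 0.36) turned to -0.052 without hormone 1. Ifit3 had 26.9, 5.52 and 4.68 CPM against 4.20, 7.71 and 2.56 CPM (log2 fold change 1.36, and 0.075 without hormone 1). Ifi44l had 10.9, 5.23 and 4.61 CPM against 2.92, 2.91 and 2.56 CPM, the closest controls of this class, with no overlap (log2 fold change 1.30, adjusted p = 0.0984; 0.81 without hormone 1). Its neighbour Ifi44 overlapped (adjusted p = 0.298). Ifi27, a mitochondrial protein, had the highest level per length of all members, 130 ± 47.8 FPKM in hormone libraries and 84.9 ± 28.3 FPKM in controls (log2 fold change of counts 0.74, adjusted p = 0.192; 0.42 without hormone 1). Bst2 (tetherin), which holds virus particles at the cell surface, had 105, 63.7 and 43.6 CPM against 49.3, 59.4 and 42.8 CPM, with hormone 3 at the low end of the controls.

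**Figure D3:**
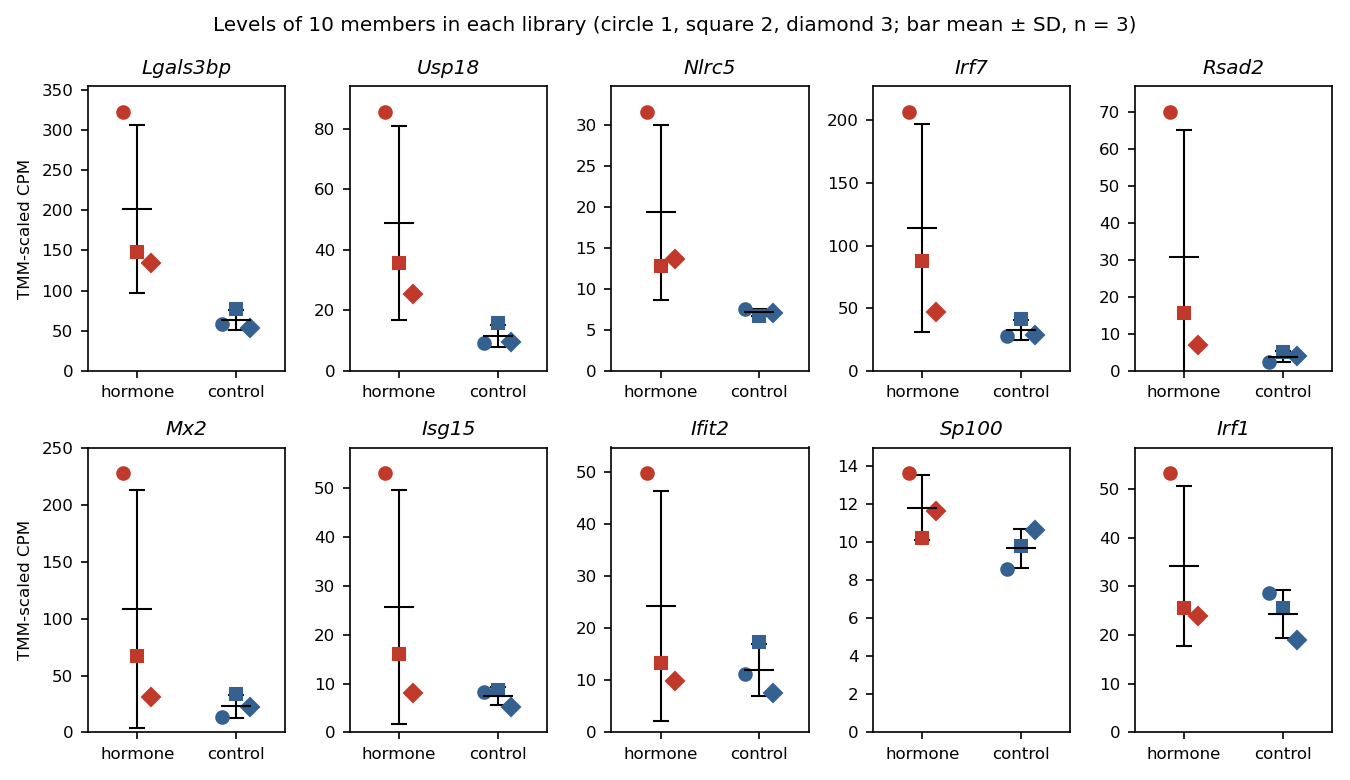
TMM-scaled CPM of 10 members in each library, hormone left of control, with libraries 1, 2 and 3 as circle, square and diamond and the mean ± SD (n = 3) as a bar, cut at 0. In every panel the hormone circle is the highest point; Lgals3bp, Usp18, Nlrc5, Irf7 and Rsad2 show no overlap, while Ifit2, Isg15, Mx2, Sp100 and Irf1 do.

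The PARP and TRIM members had moderate fold changes. Dtx3l and Parp9 form a ubiquitin ligase complex, and their log2 fold changes were 1.24 (adjusted p = 0.137) and 0.88 (adjusted p = 0.198). That of Parp14 was 1.12 (adjusted p = 0.183). Of these, Parp9 alone overlapped between the groups. Without hormone 1 the values were 0.77 for Dtx3l, 0.45 for Parp9 and 0.45 for Parp14. Trim25, a ligase linked to RIG-I signalling, had 62.9, 36.8 and 30.9 CPM in hormone libraries and 13.2, 25.2 and 25.8 CPM in controls, with no overlap (adjusted p = 0.14; DESeq2 adjusted p = 0.0407; log2 fold change 1.02, and 0.65 without hormone 1). Trim21, the intracellular antibody receptor, had 47.0, 28.5 and 26.3 CPM against 27.4, 28.0 and 24.1 CPM. Hormone 2 and 3 were level with the controls for Trim21 (adjusted p = 0.383; log2 fold change 0.048 without hormone 1).

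Lgals3bp was the 1 member that passed edgeR. This secreted glycoprotein, a ligand of galectin-3, had 323, 148 and 135 CPM in hormone libraries and 58.6, 77.6 and 53.9 CPM in controls. The lowest hormone value was well above the highest control. The mean was 202 ± 105 CPM in hormone libraries and 63.4 ± 12.5 CPM in controls (SD, n = 3 each), a 3.18-fold change (log2 1.67 ± 0.35 SE, adjusted p = 0.0496). The call sits at the threshold and was lost without any 1 of the 6 libraries (adjusted p = 0.0599 to 0.129) and in every other edgeR and limma setting, whereas DESeq2 gave an adjusted p of 7.79e-05, and 3.33e-05 without hormone 1, where the log2 fold change was 1.15. Over all genes, edgeR called 334 higher with all 6 libraries and 51 to 313 with 1 library left out. Nlrc5, the activator of MHC class I genes, had 31.6, 12.8 and 13.7 CPM against 7.62, 6.67 and 7.12 CPM. Its controls had the smallest spread relative to their mean of all 41 members (log2 fold change 1.44 ± 0.36, adjusted p = 0.0765; DESeq2 adjusted p = 0.00313; 0.89 without hormone 1). Epsti1 did not overlap either (log2 fold change 1.35, adjusted p = 0.123; 0.85 without hormone 1). Rtp4, Xaf1 and Sp100 overlapped. Sp100, a nuclear body protein, had 13.6, 10.2 and 11.6 CPM against 8.62, 9.83 and 10.6 CPM, the lowest fold change of the 41 (adjusted p = 0.376).

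The genes upstream of the members begin with the interferons themselves. Of 11 interferon genes found in the table, 10 were listed at 0 counts in all 6 libraries, Ifnb1 among them. Ifng, the gene of interferon gamma, had 5, 2 and 0 counts in hormone libraries and 0, 0 and 2 counts in controls, too few to be tested. A count of 0 allows up to 0.188 CPM in hormone 1 and up to 0.232 CPM in control 1 (3 counts per library; counting error only, before TMM scaling).

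Of 11 receptor and Jak-STAT genes, 2 rose and 1 fell in edgeR, against 2.39% of all genes called higher and 0.886% lower. In 10 of the 11 the fold change was positive, against 49.9% of all genes. Hormone 1 was the highest library for 7, against 20.5% of all genes. For 6 all hormone values lay above all controls, against 16.1%. The median log2 fold change of the 11 was 0.25, and 0.24 without hormone 1. Ifngr1, the ligand-binding chain of the interferon gamma receptor, fell to 222, 206 and 231 CPM in hormone libraries, against 397, 389 and 407 CPM in controls. All libraries were close to their group mean, hormone 1 included (log2 fold change -0.86 ± 0.11, adjusted p = 0.0129; -0.86 without hormone 1, adjusted p = 0.0613). Jak2, the kinase of that receptor and of several cytokine receptors, rose to 144, 114 and 101 CPM, against 73.9, 62.4 and 56.8 CPM in controls (log2 fold change 0.90 ± 0.17, adjusted p = 0.034; 0.75 without hormone 1). Stat3, which carries signals of the interleukin-6 family, rose to 252, 212 and 222 CPM, against 126, 147 and 148 CPM in controls (log2 fold change 0.70 ± 0.12, adjusted p = 0.0314; 0.63 without hormone 1). These 3 calls were each lost without any 1 hormone library or control 2, and that of Jak2 also without control 3, with adjusted p values up to 0.0723 for Ifngr1, 0.113 for Jak2 and 0.124 for Stat3. Over all genes, the fits without 1 hormone library or control 2 called 51 to 102 higher and 12 to 21 lower. With all 6 libraries these were 334 and 124. The calls of Jak2 and Stat3 were also lost in both limma fits, and that of Jak2 with library totals. The other receptor chains and kinases gave log2 fold changes of 0.31 for Ifnar1 (adjusted p = 0.16), 0.25 for Ifnar2 (0.37), 0.29 for Ifngr2 (0.271), 0.092 for Ifnlr1 (0.78), 0.058 for Il10rb (0.904), 0.10 for Tyk2 (0.586) and 0.0055 for Jak1 (0.981).

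**Figure D4:**
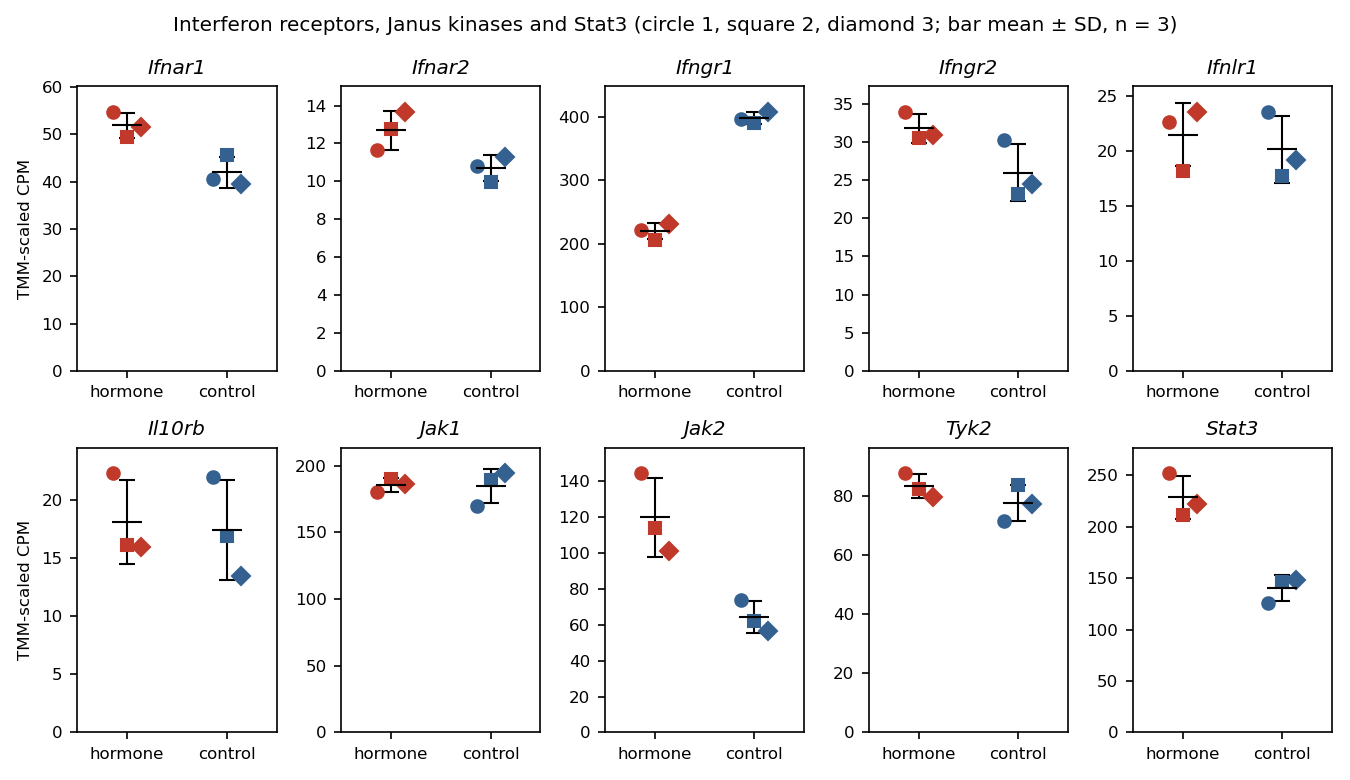
TMM-scaled CPM of interferon receptor chains, Janus kinases and Stat3 in each library, hormone left of control, with libraries 1, 2 and 3 as circle, square and diamond and the mean ± SD (n = 3) as a bar. Ifngr1 is lower in all 3 hormone libraries, and Jak2 and Stat3 are higher in all 3.

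In the other gene lists read beside the members, edgeR gave 1 call, that of Sele, from a list of NF-kB targets. Of 47 further interferon-stimulated genes tested, 0 passed edgeR in either direction. At an unadjusted p under 0.05, 11 were higher and 0 lower, against 12.1% and 10.6% of all genes, and DESeq2 called 7 higher, against 6.47% of all genes. Their median log2 fold change was 0.40, and 0.18 without hormone 1, and 39 of the 47 were highest in hormone 1. The 3 with the smallest p were Cxcl9 and Cxcl11, chemokines that draw activated T cells, and Gbp1. Cxcl9 had 55.0, 19.7 and 22.8 CPM in hormone libraries and 11.5, 9.10 and 8.98 CPM in controls (log2 fold change 1.72, adjusted p = 0.062; 1.11 without hormone 1). Cxcl11 (log2 fold change 2.67, adjusted p = 0.0635; 1.77 without hormone 1) overlaps Art3 in span, and Gbp1 had 5.98, 1.60 and 1.80 CPM against 0.499, 0.485 and 0.0641 CPM (log2 fold change 3.15, adjusted p = 0.0719; 2.26 without hormone 1). Of 17 genes that sense nucleic acid and induce interferon, 0 passed edgeR. At an unadjusted p under 0.05, 8 were higher and 1 lower, against 12.1% and 10.6% of all genes. DESeq2 called 1 of the 17 higher and 1 lower, near the shares of all genes (6.47% and 4.41%). The 3 with the smallest p were Irf3 (log2 fold change -0.46, adjusted p = 0.0964), Tlr3 (0.63, adjusted p = 0.103) and Tlr9 (1.75, adjusted p = 0.125). A list of 8 negative regulators also holds Isg20, an antiviral exonuclease that is an effector and not a damper of the signal. Of these 8 genes, 0 passed edgeR. At an unadjusted p under 0.05, 3 were higher, against 12.1% of all genes, and 2 passed DESeq2, against 6.47%. The smallest p belonged to Ptpn6 (log2 fold change 0.54, adjusted p = 0.0964), Isg20 (0.51, adjusted p = 0.107) and Socs1 (1.16, adjusted p = 0.132). Of 11 NF-kB targets tested, 1 was called higher by edgeR, against 2.39% of all genes. This was Sele, the endothelial adhesion molecule E-selectin (log2 fold change 2.48, adjusted p = 0.0238). The call was lost without any 1 library (0.0562 to 0.095), where 51 to 313 of all genes were called higher, against 334. It was also lost in both limma fits. The mean FPKM of Sele was under 1. The log2 fold change of Sele was 0.36 in limma on log2(FPKM + 1) and 1.46 on log2(FPKM + 0.1).

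Macrophage and dendritic cell markers, like T and NK cell markers, were mostly highest in the same library as the members. The 22 macrophage and dendritic cell markers summed to 2199, 1255 and 1305 CPM in hormone libraries and to 613, 1126 and 717 CPM in controls. Like the members, 21 of the 22 were highest in hormone 1, against 20.5% of all genes tested, and none of the 22 was at 0. All 22 had a positive fold change (median log2 1.11, and 0.78 without hormone 1), against 49.9% of all genes, and 0 passed edgeR. At an unadjusted p under 0.05, 19 were higher, against 12.1% of all genes, and 9 passed DESeq2, against 6.47%. Ptprc, the pan-leukocyte marker CD45, had 88.6, 50.7 and 45.0 CPM against 25.9, 33.6 and 23.7 CPM, and Siglec1, itself an interferon-inducible macrophage receptor, had 90.4, 30.7 and 26.0 CPM against 3.35, 26.4 and 9.43 CPM. The 19 T and NK cell markers in the table summed to 93.7 to 169 CPM in hormone libraries and to 59.5 to 76.3 CPM in controls, with Gzmb at 0 and hormone 3 above hormone 2. Of the 15 tested, 15 had a positive fold change and 14 were highest in hormone 1. At an unadjusted p under 0.05, 4 were higher, and 0 passed edgeR or DESeq2. The 10 B and plasma cell markers summed to 313, 304 and 259 CPM in hormone libraries and to 204, 261 and 234 CPM in controls, with hormone 3 below control 2. The 8 neutrophil markers, with Elane at 0, summed to 7.07, 5.01 and 6.79 CPM in hormone libraries and to 2.42, 3.94 and 1.60 CPM in controls. The 8 plasmacytoid dendritic cell markers, which include the member Bst2, summed to 71.9 to 155 CPM and 60.5 to 83.7 CPM. Their defining gene Siglech had 2.19, 0.290 and 0.468 CPM in hormone libraries, against 0, 0.121 and 0 CPM in controls. Of those tested, 4 of 5 plasmacytoid, 2 of 3 B and plasma cell and 1 of 2 neutrophil markers were highest in hormone 1. Luminal epithelial markers, dominated by Tgm4, summed to 84056 to 113847 CPM in hormone libraries and 68447 to 123085 CPM in controls. Of these 12 markers 10 had a positive fold change, against 49.9% of all genes. At an unadjusted p under 0.05, 6 were higher and 1 lower, against 12.1% and 10.6% of all genes. DESeq2 called 4 higher, against 6.47%, and the keratin Krt8 rose in edgeR (log2 fold change 0.95, adjusted p = 0.0164). Of 8 endothelial markers, 6 had a positive fold change (median log2 0.21), against 49.9% of all genes. At an unadjusted p under 0.05, 1 was higher and 1 lower, near the shares of all genes (12.1% and 10.6%). Among them Kdr, a receptor of vascular endothelial growth factor, rose in edgeR (log2 fold change 1.07, adjusted p = 0.0444). That call was lost with library totals, a mean FPKM of at least 1 and both limma fits (adjusted p = 0.0561 to 0.0939). The calls of Krt8 and Kdr were both lost without any 1 hormone library or control 2, and that of Kdr also without control 3 (adjusted p up to 0.0821 for Krt8 and 0.132 for Kdr). Those fits called 51 to 296 of all genes higher, against 334 with all 6 libraries. Fibroblast markers summed to 3144 to 4195 CPM and 2736 to 5383 CPM. A positive fold change was seen for 2 of 6 fibroblast, 2 of 4 basal epithelial and 0 of 7 smooth muscle markers. Their median log2 fold changes were -0.079, -0.16 and -0.41. Seminal vesicle and coagulating gland markers, with 4 of 9 at 0, summed to 3478 to 8962 CPM in hormone libraries and 1121 to 23715 CPM in controls. The part of leukocyte content in the values of the members was not tested.

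**Figure D5:**
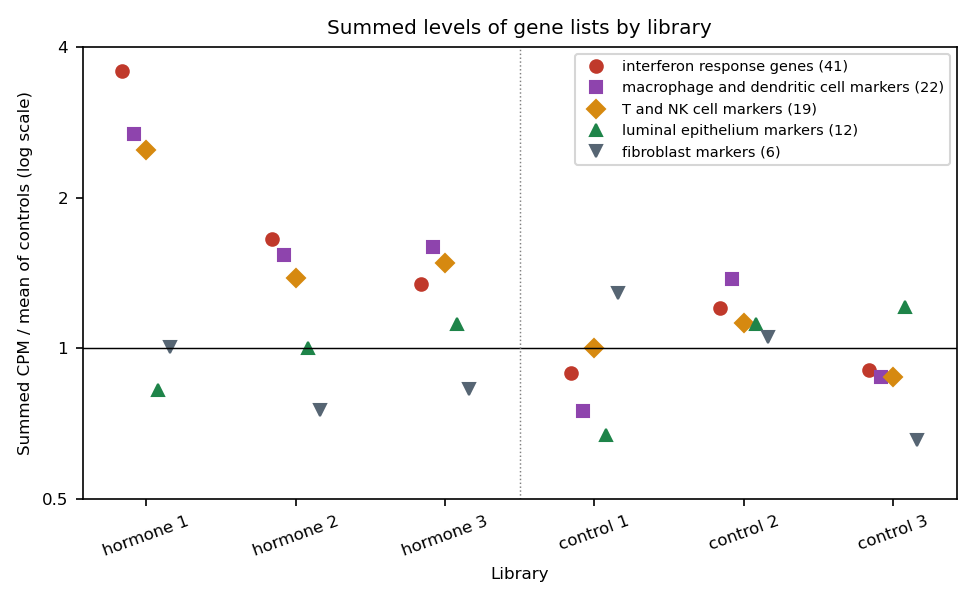
Summed CPM of the 41 members and of 4 marker lists in each library, divided by the mean of the 3 controls (log axis, hormone left of control; number of genes in brackets). The members and both leukocyte lists peak together in hormone 1, and the summed epithelial and fibroblast markers do not.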

How the data were processed

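Per the labels, prostate RNA was isolated with RNeasy columns and paired-end TruSeq libraries were sequenced. The tools listed in the submitters' processing notes are TopHat, Bowtie2 and HTSeq, with no versions. The authors deposited raw read counts per gene and FPKM values. FPKM was the count divided by gene length and library total, within 0.00112% over 10557 genes. Counts were tested with edgeR 4.0.16 (R 4.3.3) after filterByExpr (minimum count 10, total 15) and TMM (levels are TMM-scaled CPM, library size set to 1e6), with a two-sided robust quasi-likelihood F-test, 4 residual degrees of freedom and Benjamini-Hochberg adjustment over 14003 genes. SE is the log2 fold change over the square root of F. Alternatives were RLE factors, library totals, 2 filters, DESeq2 1.42.0, limma 3.58.1 on log2(FPKM + 1) and log2(FPKM + 0.1), a replicate block and each library left out. On simulated data for 13833 genes the test called 56% of 50 genes raised 2-fold, 90% of 50 raised 4-fold and 9 of 13637 unchanged. No 2 libraries of a group agreed within sampling noise (chi-square per gene at least 22.2). Members and lists were chosen with earlier results of these data known. Named genes were those with the smallest and largest p, the extreme fold changes, the highest level per length and examples of each class, and in the pathway lists every call and up to 3 with the smallest p. Gbp4, Siglec1, Siglech and the markers given by name were chosen after their values were seen. Some genes of the lists are not reported here by name.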

Additional observations from a re-analysis of the deposited data

How the results depend on the processing

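The number of members called higher was 1 with edgeR and 21 with DESeq2 (6 with DESeq2 without hormone 1, an alternative chosen after seeing the data). It was 0 with RLE factors, library totals, no filter, a mean FPKM of at least 1, both limma fits and the replicate block, and 0 with each library left out. Over all genes, edgeR called 334 higher with all 6 libraries. Without hormone 1, 2 or 3 it called 98, 102 and 98. Without control 1, 2 or 3 it called 313, 51 and 296. The cause of the differences between settings was not tested. The median log2 fold change of the members was 0.61 to 1.47 with 1 library left out and 0.76 to 1.17 in the other settings with all 6 libraries. With library totals the median of all genes moved to -0.13, and that of the members was 1.05. Members without overlap numbered 22, against 15 with library totals and 24 with RLE factors. Zbp1, Ddx58, Ifih1, Gbp4, Gbp5, Dtx3l and Parp14 had no overlap with TMM scaling but overlapped in FPKM, which uses library totals. With 1 library left out they numbered 22 to 34 (34 without hormone 3), where fewer libraries make overlap less likely by construction. Pathway genes came from lists of 11, 8, 17, 47 and 11 tested genes, the last of them NF-kB targets. Those called higher were 3 with edgeR, against 2.39% of all genes, and 14 with DESeq2, against 6.47%. They numbered 0 with limma on log2(FPKM + 1), 0 on log2(FPKM + 0.1) and 0 to 3 with 1 library left out. Over all genes those limma fits called 207 and 233 higher. Pathway genes called lower were 1 with edgeR, against 0.886% of all genes, and 2 with DESeq2, against 4.41%. They numbered 0 to 1 with 1 library left out. The log2 fold change of Ifit2 was -0.052 to 1.40 with 1 library left out, negative without hormone 1, and -0.049 with DESeq2 without hormone 1. Same-numbered libraries did not deviate together (correlations 0.083, -0.057 and 0.07), so the numbers were not taken as pairs. With the replicate block 0 members passed, Stat3 lost its call (adjusted p = 0.0792), Cxcl9 gained one (0.0492), and 228 genes were called higher and 80 lower, against 334 and 124. In the simulated data, with 3 libraries a group, fold changes of 2 were often missed. Each simulated gene was drawn on its own, with no library that stands apart as hormone 1 does. The simulation therefore does not tell how many members were missed.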

Other observations

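Ifit1, a relative of Ifit2 and Ifit3 outside the member list, showed a pattern unlike theirs and was picked out after its values were seen. It had 0, 8.71 and 6.64 CPM in hormone libraries 1 to 3 and 3.28, 0.0607 and 5.32 CPM in controls 1 to 3. Hormone 1, the highest library for Ifit2 and Ifit3, thus had 0 counts of Ifit1, and control 2 had 1 count. In the table Ifit1 lies on chromosome 1 at 252944103 to 252946170, close to Ifit3 (252906234 to 252911382).

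The 10 genes outside the list whose log2 CPM followed the mean of the standardised members most closely over the 6 libraries were Prrg2, Apol9a, Junb, Ube2l6, Txnrd1, Cd38, Tlr9, Twf2, Rnf114 and AC128859.3. Their Pearson correlations were 0.987 to 0.996, and 126 of 13962 genes reached 0.95. All 10 have their highest value in hormone 1, as the members do. The sizes differed widely among them. Prrg2 had 28.8, 25.7 and 25.5 CPM in hormone libraries and 24.1, 24.9 and 24.1 CPM in controls. Apol9a had 44.5, 21.9 and 19.5 CPM against 12.8, 19.1 and 14.8 CPM, and the immediate early gene Junb had 166, 105 and 89.2 CPM against 70.2, 82.9 and 66.6 CPM.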
